A study of Homo sapiens with 12 samples.

Results

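Transcripts of 9 genes of the Hippo pathway were chosen by identifier, namely YAP1 (ENST00000282441), TEAD1 (ENST00000527636), LATS1 (ENST00000543571), LATS2 (ENST00000382592), NF2 (ENST00000338641), AMOTL2 (ENST00000249883), CCN1 (ENST00000451137), CCN2 (ENST00000367976) and ANKRD1 (ENST00000371697). The identifiers were paired with these symbols in the rule that chose them, not in the count files. Members were chosen with earlier results of these data known, so their ranks and unadjusted p-values are descriptive. The identifier given for TEAD1 matched no row, so TEAD1 was left out under the rule and is not analysed here. The other 8 transcripts were followed among 18338 transcripts in all. Ribosome-protected fragments (RPF, or footprints, the mRNA left intact inside ribosomes after nuclease treatment) and polyadenylated mRNA were counted in HEK293T, an immortal line from human embryonic kidney, here of wild-type genotype. The cells had been exposed to GSK-A1, an inhibitor of the lipid kinase PI4KA, for 0, 60 or 360 min. Every library, those of 0 min included, carries the same GSK-A1 label, so only the time in its title marks 0 min as untreated. Each of the 6 groups had 2 libraries. Nothing in the labels says that these came from separate cultures, so p-values measure only the spread between libraries, which may be technical.

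In the Hippo pathway the kinases LATS1 and LATS2 phosphorylate the co-activator YAP1 and hold it in the cytoplasm. When they are inactive, YAP1 enters the nucleus, binds TEAD factors and turns on target genes. NF2, also called merlin, and proteins of the angiomotin family such as AMOTL2 act upstream at the membrane and cell junctions. CCN1, CCN2 and ANKRD1 are widely used as readouts of YAP1 activity, and LATS2 and AMOTL2 are also known as target genes that feed back on YAP1.

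No member differed between times after adjustment over all transcripts, and the largest log2 change among the tests was in the footprints of CCN1. Its footprints were higher in both libraries of 60 min than in both of 0 min, as were 15.4% of tested transcripts. The difference was 5.51-fold in the fit, but the 60 min libraries differed widely from each other. YAP1 mRNA was higher at 60 min than at 0 min in both libraries, as were 13.4% of tested transcripts, while its footprints overlapped. NF2 mRNA was higher in both libraries of 360 min than at either earlier time, as were 20.1% against 0 min and 21% against 60 min. LATS1 mRNA was lower at 60 min than at 0 min without overlap, as were 12.2%. LATS1 footprints were lower at 360 min than at 0 min (13.7%) and at 60 min (18.2%). Differences of LATS2 and AMOTL2 were mostly smaller than their errors, and none of YAP1 or LATS1 had an unadjusted edgeR p under 0.05.

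Libraries held 429026 to 1165740 counts, so each member rested on few reads. Levels are given as CPM, counts per 1000000 of a library's effective total. These are shares, so they show neither the amount of RNA per cell nor the number of cells. Levels of different genes were not compared, because the counted length of each transcript is not given. A transcript was tested if it had enough counts for edgeR's filter, which 6 of the 8 members did in both assays. CCN1 footprints met the filter only with the 60 min libraries counted in, where they were high. CCN2 and ANKRD1 did not pass.

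Across the whole table edgeR's quasi-likelihood test, with Benjamini-Hochberg adjusted p under 0.05, called 0 of 9653 transcripts in each footprint comparison, 0 of 9693 in each mRNA comparison and 0 of 8632 in each comparison of translational efficiency (TE, footprints relative to mRNA). Called transcripts were therefore 0% in all 9 comparisons, and 0 of the 6 tested members were called in any. Unadjusted p-values under 0.05 were found for 223 (2.31%), 377 (3.91%) and 753 (7.8%) transcripts in footprints at 60 against 0 min, 360 against 0 min and 360 against 60 min. In mRNA these numbers were 133 (1.37%), 865 (8.92%) and 998 (10.3%), and in TE they were 151 (1.75%), 489 (5.66%) and 405 (4.69%). DESeq2 called 1, 1 and 6 transcripts in footprints, 0, 19 and 61 in mRNA and 0, 0 and 7 in TE, with 0 members among them. With the replicate number as a block, the footprint comparisons gave 1, 2 and 7 calls, again with 0 members. Of the 54 tests on members, 4 had an unadjusted p under 0.05, 2 for CCN1 footprints and 2 for NF2 mRNA, and 34 changes were smaller than their standard error (SE).

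**Figure D1:**
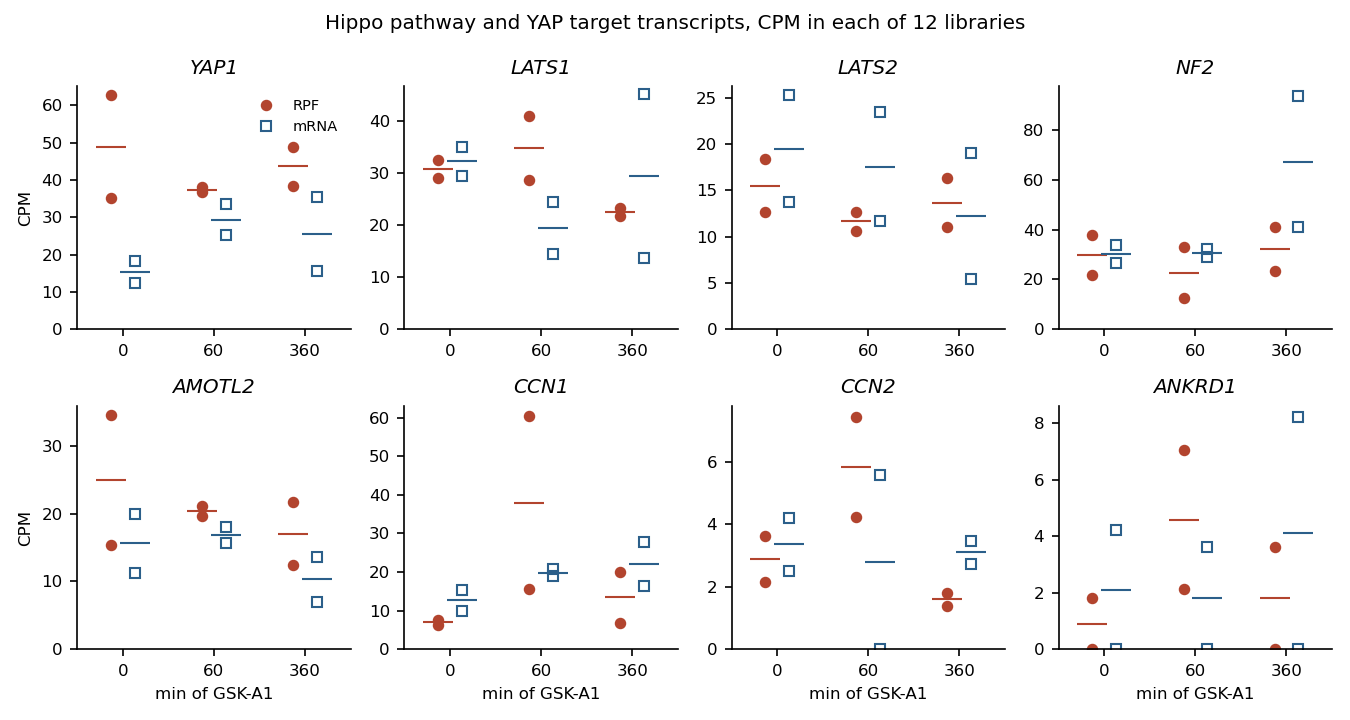
CPM of each of the 8 transcripts in every library, against minutes of GSK-A1. Filled circles are RPF libraries, open squares are mRNA libraries, and bars are the means of 2 libraries. CCN1 footprints reached 60.4 and 15.5 CPM at 60 min, above 6.33 and 7.56 CPM at 0 min. The vertical scale differs between genes.

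CCN1, formerly CYR61, encodes a secreted matricellular protein that binds integrins. Its footprint counts were 7 and 7 at 0 min, 57 and 11 at 60 min, and 5 and 11 at 360 min. In CPM these were 6.33 and 7.56 at 0 min, 60.4 and 15.5 at 60 min, and 6.87 and 19.9 at 360 min. The means were 6.95 ± 0.873, 38.0 ± 31.8 and 13.4 ± 9.23 (SD, n = 2). Both 60 min libraries lay above both 0 min libraries, replicate 1 far above replicate 2, and the 360 min libraries overlapped both earlier times. Of all tested transcripts, 15.4% were higher at 60 min than at 0 min without overlap. The exact 95% interval for counting error was 45.8 to 78.3 CPM in the first 60 min library and 7.74 to 27.8 CPM in the second, so these replicates differed by more than counting error.

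The log2 change of CCN1 footprints at 60 against 0 min was 2.46 (SE 0.68, 95% interval 1.03 to 3.89). Its rank among 9653 transcripts was 3 by size of increase and 5 by p-value. CCN1 passed the footprint filter only with the 60 min libraries counted in. Its ranks, p-values and comparison with the share of tested transcripts therefore depend on the same increase, and are descriptive. The unadjusted p of edgeR's quasi-likelihood test was 0.00209 and the adjusted p was 0.999. Adjusted values over the alternatives ran from 0.0761, without a filter on low counts, to 1. Without 60 min replicate 1 the log2 change was 1.14, with an unadjusted edgeR p of 0.254, so the size of the difference rested on that library. Without 60 min replicate 2 it was 3.11.

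**Figure D2:**
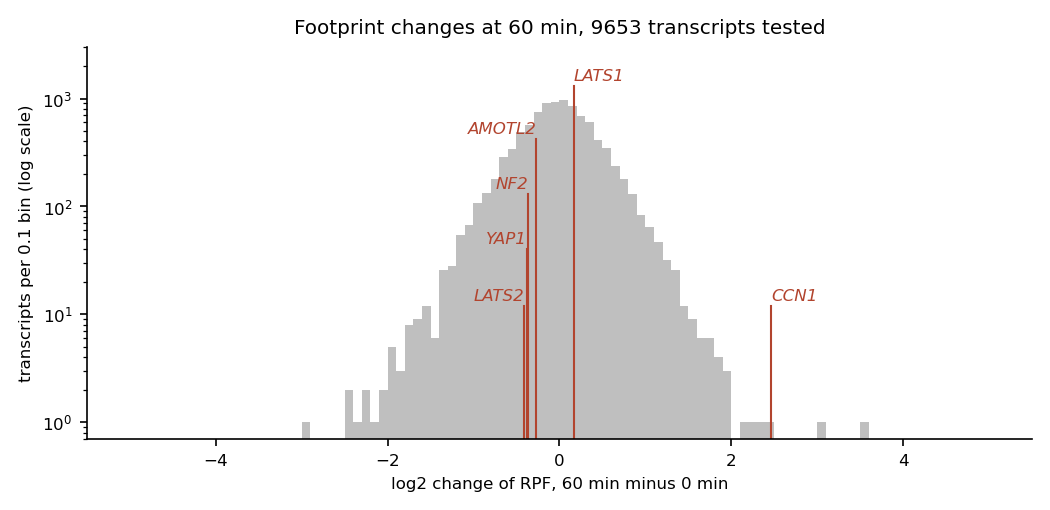
Log2 changes of footprints at 60 against 0 min for 9653 tested transcripts (grey histogram, with a log scale for the number of transcripts), and the 6 tested members (red lines, whose heights only separate the names). CCN1 lies at 2.46, in the right tail, and the other 5 lie between -0.41 and 0.17.

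At 360 min the mean of CCN1 footprints lay between those of 0 and 60 min. The log2 change was 0.89 (SE 0.78) against 0 min and -1.57 (SE 0.67, 95% interval -2.98 to -0.16) against 60 min. The latter had an unadjusted edgeR p of 0.0313 and an adjusted p of 0.597, and the libraries of the 2 times overlapped. Without 60 min replicate 1 this change was -0.26, with an unadjusted edgeR p of 0.79, and without 360 min replicate 1 it was -0.99, with a p of 0.203. Replicate 2 alone was higher at 360 min (19.9 CPM) than at 60 min (15.5 CPM).

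CCN1 mRNA counts were 8 and 11 at 0 min, 17 and 23 at 60 min, and 6 and 16 at 360 min. In CPM the 0 min libraries averaged 12.7 ± 3.85 (SD, n = 2), with 15.4 the higher, and the later ones were 19.0 and 20.7, then 16.4 and 27.7. Both later times lay above 0 min without overlap, as did 13.4% of the 9693 transcripts tested at 60 min and 20.1% at 360 min. The log2 change against 0 min was 0.64 (SE 0.54) at 60 min, where the edgeR adjusted p was 1, and 0.82 (SE 0.57) at 360 min, where it was 0.663.

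The ratio of CCN1 footprints to mRNA was likewise highest at 60 min. It was 0.546 at 0 min, 1.91 at 60 min and 0.607 at 360 min as a ratio of mean CPM. Over the 4 pairings of an RPF with an mRNA library it ranged from 0.410 to 0.756 at 0 min, from 0.749 to 3.19 at 60 min and from 0.248 to 1.21 at 360 min, so the ranges of 0 and 60 min overlapped slightly. The log2 change in TE was 1.83 (SE 0.94) at 60 against 0 min and -1.80 (SE 0.93) at 360 against 60 min. Each had an unadjusted edgeR p of 0.0717, and the adjusted p-values were 1 and 0.948. Without RPF 60 min replicate 1 the change at 60 min was 0.52 and that at 360 against 60 min was -0.49.

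The transcripts whose pattern was most like that of CCN1 were ENST00000303562 (Pearson r = 0.907) and ENST00000617444 (r = 0.853), over the 12 libraries with log2 CPM centred within each assay. The files do not pair these identifiers with gene names. CCN2 and ANKRD1 were not in this search. Of the other 5 members NF2 came closest, at rank 2926 of 8631 with r = 0.0917, and LATS2 was lowest at rank 4922 with r = -0.0551. These correlations share libraries and their depth, and describe the 12 libraries only.

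CCN2, formerly CTGF, encodes the secreted relative of CCN1 known for its part in matrix production. Its footprint counts were 4 and 2 at 0 min, 7 and 3 at 60 min, and 1 and 1 at 360 min. In CPM these were 3.62 and 2.16, then 7.42 and 4.23, then 1.37 and 1.81. The 60 min libraries were the highest and the 360 min libraries the lowest, with no overlap between any of the times. This order turned on single reads. Both 360 min libraries and 0 min replicate 2 lay under a floor of 3 counts. Replicate 2 of 60 min held fewer counts (3) than replicate 1 of 0 min (4), and stood above it only in CPM. Among the 7936 transcripts that the footprint filter left out, 11.1% were higher at 60 min than at 0 min without overlap, while at 360 min 9.16% were lower than at 0 min and 10.4% lower than at 60 min.

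The ratio of summed CCN2 footprints, 60 over 0 min, was 2.05, with an exact 95% counting interval of 0.675 to 6.86. The ratio of 360 over 60 min was 0.258 (0.0275 to 1.21). Both intervals include 1, so at this depth no difference was detectable. CCN2 mRNA held 2 and 3 counts at 0 min, 5 and 0 at 60 min, and 1 and 2 at 360 min. In the library with 0 counts, a floor of 3 counts is 2.703 CPM, and the exact 95% interval reaches 3.32 CPM.

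ANKRD1 encodes a cardiac ankyrin repeat protein that is found in the nucleus and the sarcomere. Its footprint counts were 2 and 0 at 0 min, 2 and 5 at 60 min, and 0 and 2 at 360 min. In CPM the 60 min libraries stood at 2.12 and 7.05, above 1.81 and 0 at 0 min, and 360 min, at 0 and 3.62, overlapped both. The ratio of summed counts, 60 over 0 min, was 4.30, with a counting interval of 0.819 to 42.4 that includes 1. ANKRD1 mRNA had 0 and 3 counts at 0 min, 0 and 4 at 60 min, and 3 and 0 at 360 min, so 3 of 6 libraries were at 0. CCN1, CCN2 and ANKRD1 footprints were thus each higher in both 60 min libraries than in both 0 min libraries, as were 15.4% of tested and 11.1% of untested transcripts. CCN2 and ANKRD1 rested on 10 and 7 counts in all at 60 min, and the nearest ANKRD1 libraries held 2 counts each. Footprints of LATS2 and AMOTL2, also known as targets, had log2 changes of -0.41 (SE 0.62) and -0.27 (SE 0.53), and their libraries overlapped.

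The upstream sequences of CCN2 and ANKRD1 are shown because TEAD factors bring YAP1 to such sites and because neither gene had enough counts to be tested. They are the 250 bases before the annotated start, from RefSeq (GRCh38.p14), 5' to 3' on the gene's strand. Capitals mark the TEAD core GGAATG, searched on both strands. CCN2 is shown from chr6:131951373-131951622, minus strand, and ANKRD1 from chr10:90921088-90921337, minus strand.
CCN2: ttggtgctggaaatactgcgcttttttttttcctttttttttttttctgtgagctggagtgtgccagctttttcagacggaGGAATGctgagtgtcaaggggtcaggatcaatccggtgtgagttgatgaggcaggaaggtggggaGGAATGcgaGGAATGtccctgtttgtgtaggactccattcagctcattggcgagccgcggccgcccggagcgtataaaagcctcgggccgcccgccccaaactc
ANKRD1: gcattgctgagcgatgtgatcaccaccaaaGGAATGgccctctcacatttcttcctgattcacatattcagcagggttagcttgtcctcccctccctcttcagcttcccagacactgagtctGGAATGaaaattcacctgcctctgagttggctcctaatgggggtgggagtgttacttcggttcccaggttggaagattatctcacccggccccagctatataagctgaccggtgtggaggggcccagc

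In windows from 250 bases before to 50 after the start, the core occurred 3 times at CCN2 and 2 times at ANKRD1. The nearest CCN2 copies began 104 and 95 bases before the start, and the ANKRD1 copies began 220 and 128 bases before it. Of 35116 RefSeq promoters of the same length, 14% held at least 1 core, 1.37% at least 2 and 0.128% at least 3. RefSeq windows were matched by symbol for 7 of the 9 genes. CCN1 and TEAD1 had none, so the promoter of CCN1 was not searched. One core each was found at YAP1, at LATS2 (after the start) and at 1 of the 2 AMOTL2 starts, and none at either start of LATS1 or NF2. The SRF-binding CArG box was in none of these windows, against 1.29% of all promoters, a share too low for its absence from so few windows to be informative. A match is a stretch of letters, and no binding was measured here.

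**Figure D3:**
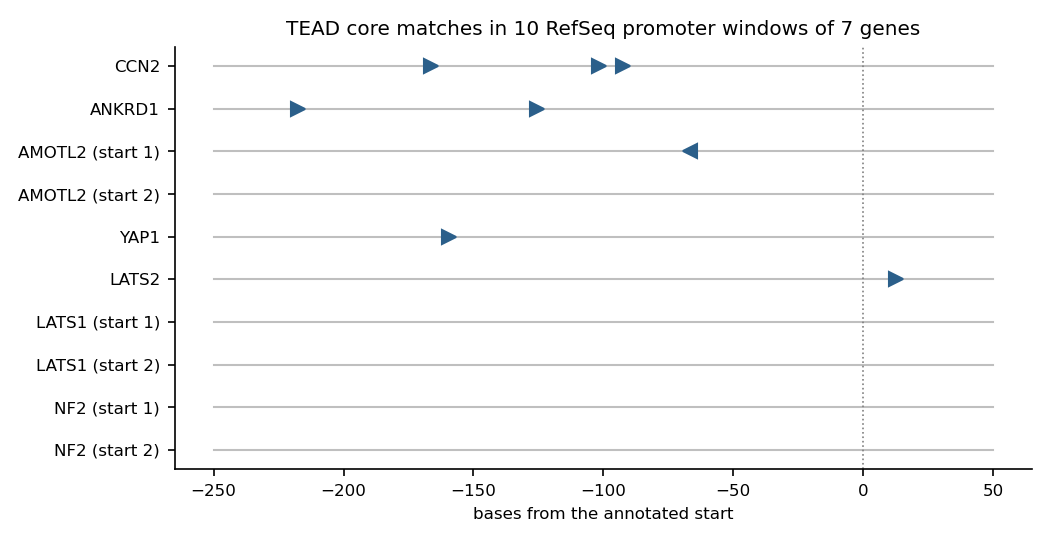
Positions of the TEAD core in the 10 RefSeq promoter windows of 7 genes, in bases from the annotated start (dotted line). Triangles point along the strand of the match, right for the gene's own strand. CCN2 holds 3 matches and ANKRD1 holds 2, all before the start.

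YAP1, the co-activator itself, had footprint counts of 39 and 58 at 0 min, 36 and 26 at 60 min, and 28 and 27 at 360 min. In CPM these were 35.3 and 62.7, then 38.2 and 36.7, then 38.5 and 48.9. The 0 min libraries spanned all 4 later values, and the log2 changes against 0 min were -0.38 (SE 0.42) at 60 min and -0.16 (SE 0.42) at 360 min. Their 95% intervals were -1.26 to 0.50 and -1.05 to 0.73. At 360 min both libraries lay just above both of 60 min, as 17.4% of tested transcripts did, with a log2 change of 0.22 (SE 0.43).

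YAP1 mRNA counts were 10 and 13 at 0 min, 30 and 28 at 60 min, and 13 and 9 at 360 min. In CPM these were 12.5 and 18.3, then 33.5 and 25.2, then 35.5 and 15.6. The 60 min libraries were above the 0 min libraries without overlap, whereas those of 360 min were far apart and overlapped both. The log2 change was 0.92 (SE 0.54, 95% interval -0.29 to 2.14) at 60 min and 0.67 (SE 0.58) at 360 min. The edgeR adjusted p was 1 and 0.724, respectively. Without mRNA 360 min replicate 1 the change at 360 min was 0.041.

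The ratio of YAP1 footprints to mRNA was lower at 60 min than at 0 min, without passing a test. It was 3.18 at 0 min, where it lay at the 94.7th percentile of 8632 transcripts, and 1.28 at 60 min, at the 60.9th. Over pairs of libraries it ranged from 1.93 to 5.01 at 0 min and from 1.10 to 1.51 at 60 min, 2 ranges that did not overlap. The share of all transcripts whose ratio ranges do not overlap was not computed. At 360 min it was 1.71, with pairs from 1.08 to 3.13. The log2 change in TE at 60 against 0 min was -1.30 (SE 0.68, 95% interval -2.75 to 0.15), with an unadjusted edgeR p of 0.0752 and an adjusted p of 1. Without RPF 0 min replicate 2 it was -0.81.

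LATS1, a kinase that phosphorylates YAP1, had footprints of 28.9 and 32.4 CPM at 0 min, 28.6 and 40.9 CPM at 60 min, and 23.3 and 21.7 CPM at 360 min. The 360 min libraries were below all 4 earlier ones. Among tested transcripts, 13.7% were lower at 360 min than at 0 min without overlap, and 18.2% were lower than at 60 min. The log2 changes at 360 min were -0.43 (SE 0.46) against 0 min and -0.60 (SE 0.46) against 60 min. The edgeR adjusted p was 1 for the former and 0.783 for the latter.

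LATS1 mRNA was 35.0 and 29.5 CPM at 0 min, 14.5 and 24.3 CPM at 60 min, and 13.7 and 45.1 CPM at 360 min. It was lower at 60 min than at 0 min without overlap, as 12.2% of tested transcripts were, and the 360 min libraries, with 5 and 26 counts, spanned all others. At 60 min it differed by -0.72 (SE 0.56) on the log2 scale, and the edgeR adjusted p was 1. Without 60 min replicate 1 this difference was -0.39. Over pairs of libraries the ratio of LATS1 footprints to mRNA ranged from 0.826 to 1.10 at 0 min and from 1.18 to 2.82 at 60 min. These ranges did not overlap, with the share of all transcripts not computed. In TE the log2 change was 0.91 (SE 0.67) at 60 against 0 min and -1.30 (SE 0.71) at 360 against 60 min. The latter had an unadjusted edgeR p of 0.0892 and an adjusted p of 0.948, and was -0.20 without mRNA 360 min replicate 2.

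LATS2, the related kinase, was measured on 8 to 17 footprint counts and 2 to 21 mRNA counts per library. Its footprints were 12.7 and 18.4 CPM at 0 min, 10.6 and 12.7 CPM at 60 min, and 10.99 and 16.3 CPM at 360 min. Its mRNA was 13.8 and 25.3 CPM, then 23.4 and 11.7 CPM, then 5.47 and 19.1 CPM. No time stood clear of the libraries of another: the 60 and 0 min footprints met at 12.7 CPM. In TE the change at 60 against 0 min was -0.25 (SE 0.83) on the log2 scale. All 9 of its log2 changes were smaller than their SE.

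**Figure D4:**
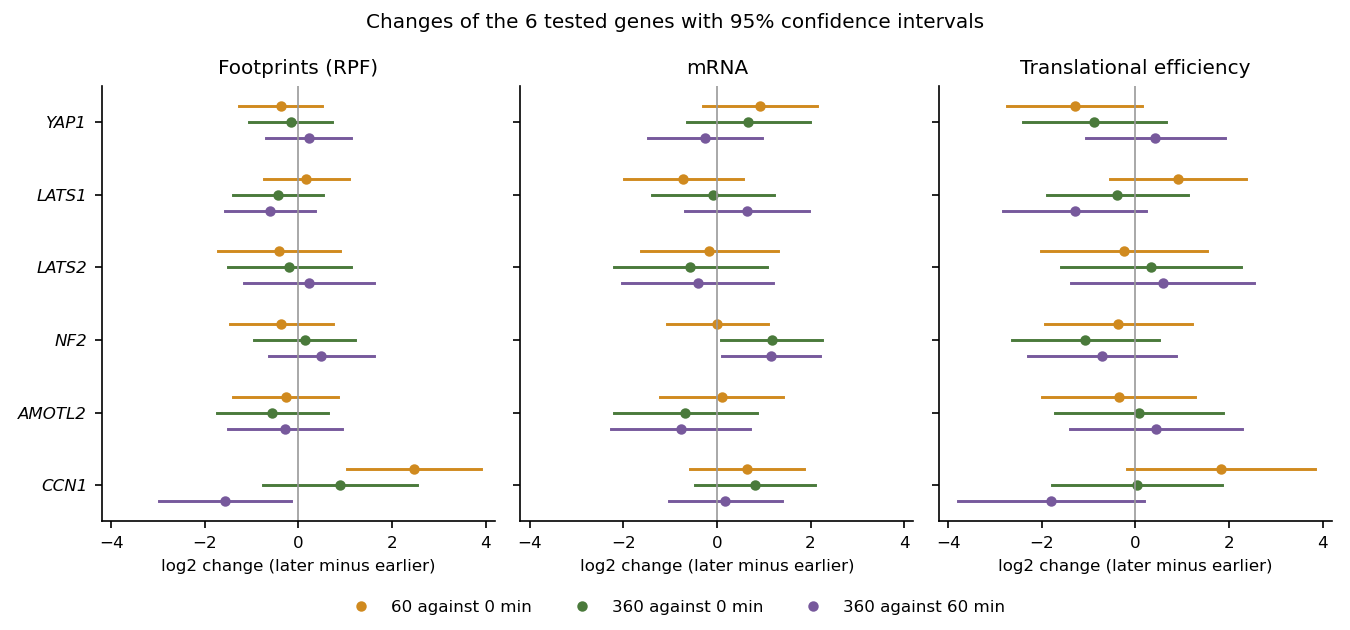
Log2 changes (points) with 95% confidence intervals (lines) of the 6 tested genes in footprints, mRNA and TE, for 60 against 0 min, 360 against 0 min and 360 against 60 min. Intervals leave out 0 for CCN1 footprints at 60 against 0 min and 360 against 60 min, and for NF2 mRNA in both 360 min comparisons.

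NF2 encodes a membrane-linked scaffold that promotes activation of the LATS kinases. Its mRNA was 33.8 and 26.7 CPM at 0 min, 32.3 and 28.8 CPM at 60 min, and 41.0 and 93.6 CPM at 360 min. These rest on 27 and 19, 29 and 32, and 15 and 54 counts. Both 360 min libraries lay above all 4 earlier ones, as 20.1% of tested transcripts did against 0 min and 21% against 60 min, but they differed from each other by more than the earlier ones did.

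The log2 change of NF2 mRNA was 1.17 (SE 0.48, 95% interval 0.10 to 2.24) at 360 against 0 min and 1.16 (SE 0.47) at 360 against 60 min. The unadjusted edgeR p-values were 0.0358 and 0.0348, and the adjusted ones 0.558 and 0.446, the latter the smallest of any member. Without mRNA 360 min replicate 2 the change was 0.46 against 0 min and 0.42 against 60 min. NF2 footprints overlapped between all times. They were 38.0 and 21.6 CPM at 0 min, 32.9 and 12.7 CPM at 60 min, and 41.2 and 23.5 CPM at 360 min, and the log2 change at 360 against 0 min was 0.13 (SE 0.51). RPF replicate 1 was the higher one at every time, by more than the times differed. In TE the log2 change at 360 against 0 min was -1.07 (SE 0.73), with an edgeR adjusted p of 0.873, and was -0.39 without mRNA 360 min replicate 2.

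AMOTL2, an angiomotin family protein that holds YAP1 at cell junctions, had footprints of 15.4 and 34.6 CPM at 0 min, 21.2 and 19.7 CPM at 60 min, and 12.4 and 21.7 CPM at 360 min. The 0 min libraries enclosed both 60 min values. The log2 change at 360 against 0 min was -0.56 (SE 0.56). AMOTL2 mRNA was 20.0 and 11.2 CPM, then 15.6 and 18.0 CPM, then 13.7 and 6.94 CPM. The 360 min libraries, on 5 and 4 counts, lay below those of 60 min, as 19.2% of tested transcripts did, and the log2 change was -0.77 (SE 0.66, edgeR adjusted p 0.728), or -0.30 without 360 min replicate 2.

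**Figure D5:**
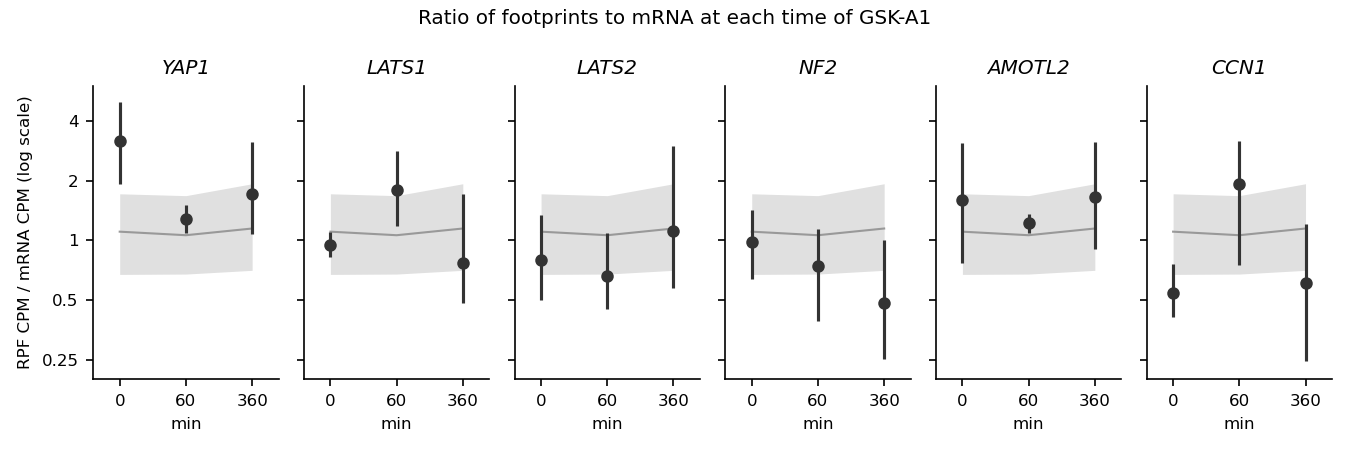
Ratio of footprint CPM to mRNA CPM (log scale) for the 6 tested genes at each time. Points are ratios of means, lines span the 4 pairings of an RPF with an mRNA library, and the grey line and band are the median and quartiles of all transcripts tested for TE. YAP1 starts at 3.18, above the band, and CCN1 starts at 0.546, below it.

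At 0 min the order of the footprint to mRNA ratio was YAP1 (3.18), AMOTL2 (1.60), NF2 (0.986), LATS1 (0.951), LATS2 (0.795) and CCN1 (0.546). This ratio needs no gene length if both assays were counted over the same region. The median of all transcripts was 1.11, with quartiles of 0.674 and 1.72. Neighbours in the order overlapped over their pairs of libraries throughout, while YAP1, from 1.93 to 5.01, stood clear of NF2, LATS1, LATS2 and CCN1. CCN1, from 0.410 to 0.756, stood clear of YAP1, LATS1 and AMOTL2. At 60 min CCN1 had the highest ratio of the 6, 1.91, and its pairs of libraries overlapped those of each other member.

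Taken over the 6 tested members, log2 changes had no common sign. In footprints at 60 against 0 min, 2 of 6 were positive with a median log2 change of -0.31, against -0.0097 for all transcripts. At 360 against 0 min, 2 of 6 were positive with a median of -0.18, against 0.02. In mRNA, 4 of 6 were positive at 60 min with a median of 0.06, and 3 of 6 at 360 min with a median of 0.29, against -0.02 and -0.03 for all transcripts. Library totals in place of TMM factors lowered the median of all transcripts at 360 against 0 min by 0.143 in footprints and 0.154 in mRNA, and left 1 of 6 and 3 of 6 members positive. Without overlap between replicates, 1 member was higher in footprints at 60 min (CCN1) and 1 lower at 360 min (LATS1), both against 0 min, where 15.4% and 13.7% of all tested transcripts did so. In mRNA, YAP1 and CCN1 were higher and LATS1 lower at 60 min, against 13.4% and 12.2% of all transcripts, and NF2 and CCN1 were higher at 360 min, against 20.1%. The median SE of a member's log2 change was 0.52 in footprints and 0.55 in mRNA at 60 min.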

How the data were processed

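RPF and mRNA libraries of HEK293T cells were grouped by assay and time, as titled. Raw read counts for each Ensembl transcript were deposited by the authors, 1 file per library, per the file headers. Cutadapt 2.8, Bowtie 1.2.3 and STAR 2.7.10a are named, per the submitters' processing notes. The counting program, counted region, strand use, genome build and annotation are not given in the sources used here, so overlapping genes or near-identical transcripts could share reads. Per the labels' protocols, fragments of ribosome fractions were cut from a gel after RNase I digestion. Files list no zeros, so absent rows were read as 0.

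Counts were tested in R 4.3.3 with edgeR 4.0.16 (filterByExpr, TMM scaling, quasi-likelihood test, time as the factor, 6 libraries per assay). TE was the interaction of assay and time over 12 libraries, with TMM within each assay. P-values were adjusted by Benjamini-Hochberg over all transcripts tested, with a threshold of 0.05. The SE is the log2 change divided by the square root of F. CPM used TMM-scaled totals. Exact intervals (Clopper-Pearson, 95%) and floors of 3 counts cover counting error only. Alternatives were RLE scaling, library totals, no filter, DESeq2 1.42.0, a replicate block, TMM over all libraries for TE, and leaving out each library. The RPF and TE tests were run on simulated data, and the mRNA test was not. The simulated libraries varied less than the real ones, whose coefficient of variation was 31.0% in RPF and 33.2% in TE. Power and error at the spread of these data were therefore not checked. Replicates differed by more than sampling noise (chi-square per degree of freedom 8.61 to 16.7), so none was a duplicate.

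Same-numbered RPF libraries deviated together from their group means (r = 0.34 to 0.36 for the 3 pairs of times, over 4243 transcripts), though the labels state no pairing. The tests reported above did not use such a pairing, and only the replicate block, an alternative, did. With the block, edgeR gave unadjusted p under 0.05 for 433 footprint transcripts at 60 against 0 min, in place of 223. At 360 against 0 min it gave 570 in place of 377, and at 360 against 60 min 1123 in place of 753. In mRNA the numbers did not mark such pairs throughout: 60 and 360 min deviated together (r = 0.404), but 0 min did not with either (r = -0.481 and -0.149).

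All members were named, with the 2 transcripts most like CCN1; CCN2 and ANKRD1 did not pass the filter needed for that search. Members and lists were chosen with earlier results of these data known. No table here pairs transcripts with symbols, so the wider pathway list, HEK293T markers, levels per coding length and protein features were not computed.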

Additional observations from a re-analysis of the deposited data

How the results depend on the processing

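Of 98 results of alternatives, each for 1 setting and 1 of the 9 comparisons, 98 gave 0 called members. The fits were fewer, since a fit could serve several comparisons. Of 588 values of single genes, 536 kept their direction and 52 changed sign, 49 of these when 1 library was left out, and the lowest adjusted p was 0.0761. DESeq2 gave no adjusted p for 24 of its 54 values. The count over all transcripts, 0 in each comparison of the fits reported above, was moved by 4 kinds of alternative, whose cause was not tested. Without a filter edgeR called 1 at RPF 60 against 0 min, 33 at RPF 360 against 60 min, 17, 89 and 113 in mRNA at 60 against 0, 360 against 0 and 360 against 60 min, and 3, 38 and 22 in TE in that order. DESeq2 called 1, 1 and 6 in RPF, 19 and 61 in mRNA at 360 against 0 and 60 min, and 7 in TE at 360 against 60 min. With the replicate block RPF gave 1, 2 and 7, and the block moved no other call. In mRNA, where same-numbered libraries of 0 min correlated at -0.481 and -0.149 with those of 60 and 360 min, and those of 60 with 360 min at 0.404, a crossed block, chosen after seeing the data, called 0 in both comparisons with 0 min. Leaving out 1 library gave 0 to 1 in RPF at 60 and at 360 against 0 min, and 0 to 75 at 360 against 60 min, the highest without RPF 360 min replicate 1.

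A lone library left in a group was assumed to vary like the other groups. Library totals alone gave log2 changes of -0.044 for CCN1 in mRNA at 360 against 60 min and -0.0023 for NF2 in RPF at 360 against 0 min, and no filter gave -0.061 for CCN1 in TE at 360 against 0 min. These changes of sign lie within the SE. Leaving out 1 library gave these ranges of log2 change where the sign changed. In RPF 360 min against 0 min, AMOTL2 -1.05 to 0.10, CCN1 -0.023 to 1.48, LATS2 -0.50 to 0.073, NF2 -0.38 to 0.60, YAP1 -0.53 to 0.28. In RPF 360 min against 60 min, AMOTL2 -0.74 to 0.059, LATS2 -0.090 to 0.47, NF2 -0.045 to 1.35. In RPF 60 min against 0 min, AMOTL2 -0.74 to 0.43, LATS1 -0.085 to 0.41, NF2 -1.23 to 0.15, YAP1 -0.74 to 0.11. In TE 360 min against 0 min, AMOTL2 -0.45 to 0.76, CCN1 -0.87 to 0.63, LATS1 -0.91 to 0.71, LATS2 -0.17 to 1.52. In TE 360 min against 60 min, AMOTL2 -0.086 to 0.98, LATS2 -0.033 to 1.77, NF2 -1.23 to 0.15, YAP1 -0.15 to 1.13. In TE 60 min against 0 min, AMOTL2 -0.84 to 0.35, LATS2 -0.73 to 0.37, NF2 -1.23 to 0.14. In mRNA 360 min against 0 min, LATS1 -1.21 to 0.49. In mRNA 360 min against 60 min, CCN1 -0.27 to 0.46, LATS1 -0.52 to 1.18, LATS2 -1.64 to 0.14, YAP1 -0.92 to 0.28. In mRNA 60 min against 0 min, AMOTL2 -0.25 to 0.60, LATS2 -0.70 to 0.33, NF2 -0.15 to 0.21. Where the sign held, the ranges were as follows. In RPF 360 min against 0 min, LATS1 -0.52 to -0.37. In RPF 360 min against 60 min, CCN1 -2.50 to -0.26, LATS1 -0.86 to -0.38, YAP1 0.021 to 0.36. In RPF 60 min against 0 min, CCN1 1.14 to 3.11, LATS2 -0.65 to -0.11. In TE 360 min against 0 min, NF2 -1.56 to -0.39, YAP1 -1.46 to -0.19. In TE 360 min against 60 min, CCN1 -2.71 to -0.49, LATS1 -1.79 to -0.20. In TE 60 min against 0 min, CCN1 0.52 to 2.47, LATS1 0.64 to 1.27, YAP1 -1.67 to -0.81. In mRNA 360 min against 0 min, AMOTL2 -1.16 to -0.16, CCN1 0.40 to 1.15, LATS2 -1.76 to -0.0079, NF2 0.46 to 1.63, YAP1 0.041 to 1.24. In mRNA 360 min against 60 min, AMOTL2 -1.28 to -0.30, NF2 0.42 to 1.59. In mRNA 60 min against 0 min, CCN1 0.38 to 0.98, LATS1 -1.11 to -0.39, YAP1 0.70 to 1.21. Which part of these shifts counting error makes up was not tested.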
